A study of Mus musculus with 18 samples.

Results

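The sterol and fatty acid synthesis genes are a set of 32 mouse genes that encode the enzymes of cholesterol synthesis and of fatty acid synthesis, elongation and desaturation, together with the proteins that control them. They were chosen by name, and their values were read from every probe set of the array whose platform annotation gives a single gene symbol. Of the 32 genes, 31 had at least 1 such probe set, and 1, Acat2, had none, so no expression value is given for it. The 31 genes had 74 probe sets, of which 66 passed a filter on low signal, and all 31 were among the 11569 genes tested, out of 18193 genes represented.

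Cells make cholesterol from acetyl-CoA through mevalonate, squalene and lanosterol, and make fatty acids from the same precursor through malonyl-CoA. Many of these enzymes are switched on together by the SREBP transcription factors, which are carried by SCAP out of the endoplasmic reticulum when membrane sterol is low and are held back there by INSIG proteins when it is high. In skin, these lipids go into membranes, the epidermal barrier and the sebum of the sebaceous gland, which is attached to the hair follicle above the bulge.

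The study measured RNA of sorted skin cells on 18 Affymetrix arrays, in 6 groups of 3 arrays. All mice carried K5tTA and pTRE-H2B-GFP, from FvB and CD1 parents, so that the keratin 5 promoter drives a histone-GFP label in epithelial cells until doxycycline, at 1 g per kg of food, stops it and divisions dilute it. Divided bulge cells (1 to 2 divisions), undivided bulge cells (0 divisions) and non-bulge cells were sorted by CD34, α6-integrin and GFP from the same 3 mice at postnatal day (PD) 25 after doxycycline from PD22, and from 3 other mice at PD21 after doxycycline from PD18. Every group thus shares both transgenes and the doxycycline diet, and there was no group without them. The bulge is the niche of hair follicle stem cells, and the comparisons ask how its cells differ from other skin cells, how cells that divided during the chase differ from those that did not, and how the 2 ages, tied by the design text to different hair cycle phases, differ. The label reports divisions only in cells in which the keratin 5 promoter is active.

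Each array held RNA of 1 sorted fraction of 1 mouse, amplified from 5 ng. All arrays had a 2% trimmed mean of 500 signal units, and array medians ranged from 60.3 to 116.6. The arrays formed 2 sets of 9 that stood apart in the signal of spiked-in control transcripts, at 10.3 to 10.6 and 12.1 to 12.6 on the log2 scale. Set 1 held mice 1 and 2 of PD21 and mouse 1 of PD25, and set 2 held the others, so each set contained all 6 groups. The ratio of 3′ to 5′ Gapdh signal, a measure of RNA integrity, ranged from 3.10 to 11.6. Cd34, the sorting marker, lay at 11.56 to 12.86 in divided and 12.24 to 12.50 in undivided bulge at PD25, against 4.12 to 5.55 in non-bulge cells. At PD21 it lay at 7.91 to 9.68 in divided and 12.40 to 13.12 in undivided bulge, against 4.10 to 5.36 in non-bulge cells. The cells labelled divided bulge at PD21 therefore stood between the other fractions in this marker, and so they did in the stem cell factor Lhx2, at 9.21 to 9.87, against 11.72 to 11.84 in undivided bulge and 7.41 to 7.93 in non-bulge cells. Itga6, the other surface marker, lay at 12.35 to 13.44 over all arrays.

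All values of the 31 genes are given on the log2(signal + 16) scale, 1 probe set per gene (the brightest), for mice 1 to 3 in that order. The signal is scaled within the array, and in bulk RNA fewer cells of a type and less RNA per cell cannot be told apart. A gene passed when its Benjamini-Hochberg adjusted p in limma, taken over all 11569 genes, was under 0.05, and differences carry the standard error of that fit with 3 mice per group. Fold changes refer to signal + 16 and understate the change of dim genes. Of the 31 genes, 27 lay above the array median in all 18 arrays. Mvk, Mvd and Fads1 did so in 16 arrays each, and Fads2 in only 6.

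**Figure D1:**
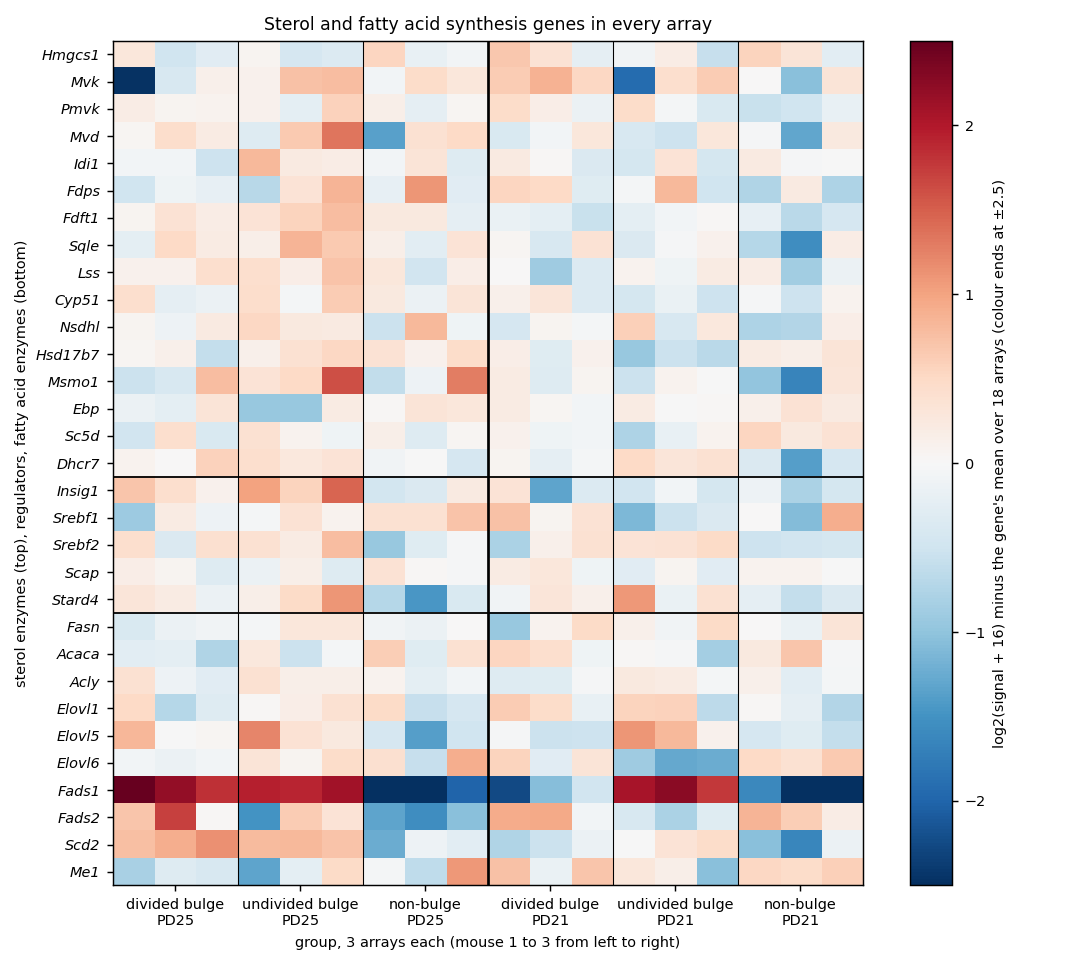
Heat map of the 31 genes (rows, in 3 blocks of sterol enzymes, regulators and fatty acid enzymes) in the 18 arrays (columns, 3 mice per group). Colour shows log2(signal + 16) minus the gene's mean over all arrays. Fads1 is high in both bulge fractions at PD25 and in undivided bulge at PD21, and low in the other 3 groups.

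In undivided bulge cells the desaturases Fads1 and Scd2 and the elongase Elovl5 were higher than in non-bulge cells at both ages. At PD25, 5 of 31 genes passed (16.1%), all higher: the fatty acid enzymes Fads1, Scd2 and Elovl5 and the sterol regulators Insig1 and Stard4. Over all genes 10.5% passed at PD25, 5.71% higher. At PD21, 6 of 31 passed (19.4%), with Fads1, Scd2, Elovl5 and the sterol reductase Dhcr7 higher and Elovl6 and Hsd17b7 lower. Over all genes 11.0% passed at PD21, 6.12% higher and 4.93% lower. By role, 4 of 10 fatty acid enzymes, 2 of 16 sterol enzymes and 0 of 5 regulators passed at PD21, and 3 of 10, 0 of 16 and 2 of 5 at PD25. The 2 groups did not overlap for 10 genes at PD25 (24.4% of all genes) and for 11 at PD21 (26.0% of all genes).

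Divided bulge cells at PD25 were higher than non-bulge cells in 3 of 31 genes (9.68%), Fads1, Scd2 and Fads2, against 8.87% of all genes called and 5.62% called higher. Of these 3, Fads2 lay above the array median in only 6 arrays and was tested because of the groups in which it is high. At PD21 none of the 31 passed in limma, 3 had an unadjusted p under 0.05, and 0.182% of all genes passed. Divided against undivided bulge, 0 of 31 passed at PD25, where 0% of all genes did, and 2 of 31 (6.45%) at PD21, where Elovl6 was higher and Fads1 lower and 8.28% of all genes passed. Between PD25 and PD21, 1 gene (Elovl6) passed in undivided bulge, 2 (Fads1 and Scd2) in divided bulge and 0 in non-bulge cells, beside 0.0951%, 7.84% and 0.0432% of all genes. Comparisons within an age share arrays, so their values are given side by side and are not separate evidence.

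**Figure D2:**
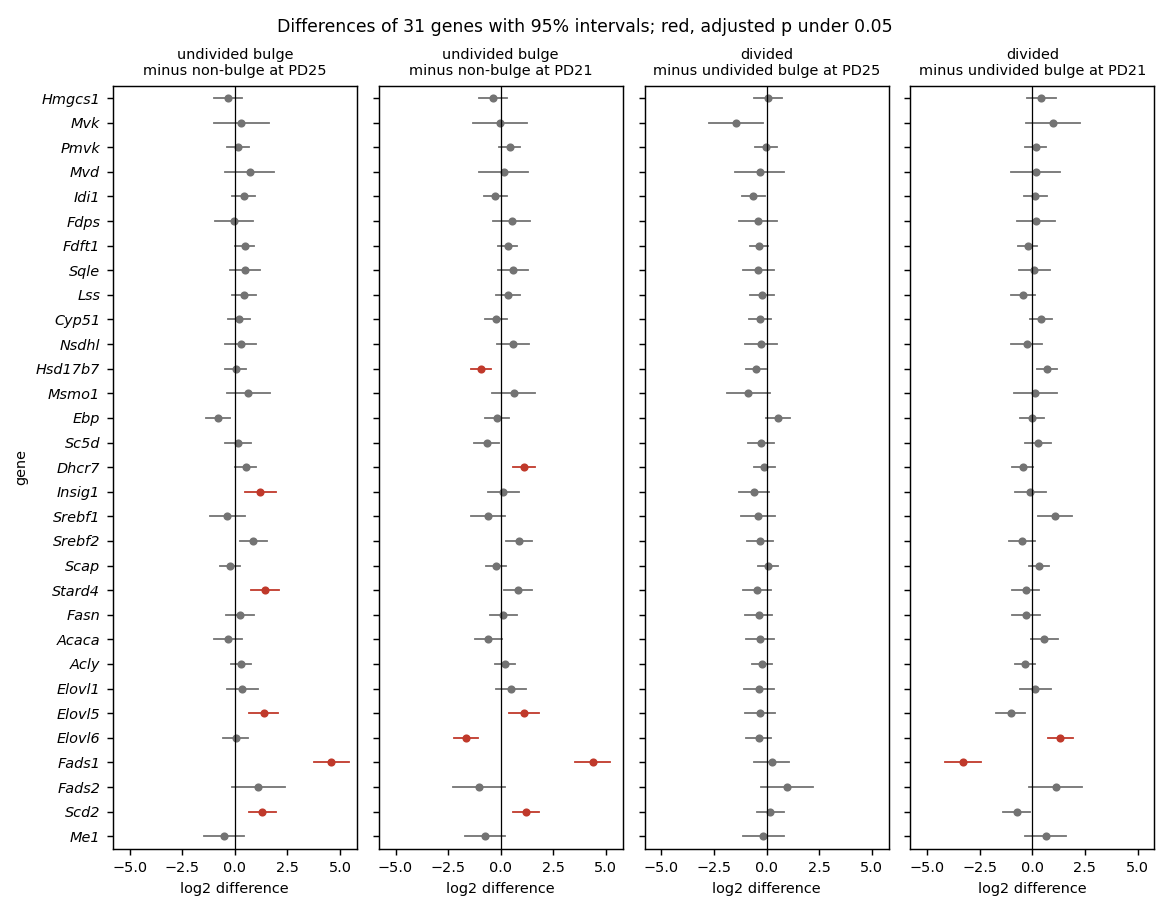
Log2 differences of the 31 genes (rows) with 95% intervals for undivided bulge minus non-bulge and divided minus undivided bulge at each age. Red marks an adjusted p under 0.05. Fads1 is the only gene whose difference exceeds 3 in any panel, and 25 of 31 genes lie left of 0 for divided minus undivided bulge at PD25, none of them red.

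Upstream sequence is shown for the elongases Elovl5 and Elovl6, which went opposite ways in undivided bulge at PD21, for Hmgcs1, whose window alone held TCACNCCAC, and for Hsd17b7 and Insig1, which each passed 1 comparison. Each window is the 250 bases before a start that RefSeq annotates on GRCm38.p6, printed 5′ to 3′ along the gene. For Hsd17b7 that start lies inside the widest gene bounds, and the last 37 bases of its window fall within them. Capitals mark TCACNCCAC or CACCCCAC (sterol response element letters, which can overlap each other) and CCAAT (the letters of an NF-Y site, ATTGG on the other strand), read on both strands. The windows are chr9:77917115-77917364 on the plus strand for Elovl5, chr3:129532136-129532385 on the plus strand for Elovl6, chr13:119690101-119690350 on the plus strand for Hmgcs1, chr1:169969206-169969455 on the minus strand for Hsd17b7 and chr5:28071162-28071411 on the plus strand for Insig1.
Elovl5: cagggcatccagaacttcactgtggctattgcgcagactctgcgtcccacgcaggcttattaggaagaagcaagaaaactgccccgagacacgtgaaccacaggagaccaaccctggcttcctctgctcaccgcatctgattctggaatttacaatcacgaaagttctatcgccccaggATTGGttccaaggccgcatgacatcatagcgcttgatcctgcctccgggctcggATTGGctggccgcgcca
Elovl6: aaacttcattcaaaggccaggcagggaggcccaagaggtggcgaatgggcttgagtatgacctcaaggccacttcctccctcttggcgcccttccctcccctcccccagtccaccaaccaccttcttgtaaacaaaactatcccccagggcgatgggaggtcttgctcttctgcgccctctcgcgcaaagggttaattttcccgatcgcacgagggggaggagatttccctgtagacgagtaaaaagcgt
Hmgcs1: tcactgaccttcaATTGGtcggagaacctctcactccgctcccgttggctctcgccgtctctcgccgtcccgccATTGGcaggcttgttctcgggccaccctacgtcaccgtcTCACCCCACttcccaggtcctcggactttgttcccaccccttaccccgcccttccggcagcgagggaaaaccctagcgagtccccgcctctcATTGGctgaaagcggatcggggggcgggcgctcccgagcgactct
Hsd17b7: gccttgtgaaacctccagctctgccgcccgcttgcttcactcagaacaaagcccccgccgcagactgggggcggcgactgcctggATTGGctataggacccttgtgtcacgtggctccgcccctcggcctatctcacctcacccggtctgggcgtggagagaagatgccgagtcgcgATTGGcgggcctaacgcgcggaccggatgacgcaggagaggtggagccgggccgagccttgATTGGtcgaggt
Insig1: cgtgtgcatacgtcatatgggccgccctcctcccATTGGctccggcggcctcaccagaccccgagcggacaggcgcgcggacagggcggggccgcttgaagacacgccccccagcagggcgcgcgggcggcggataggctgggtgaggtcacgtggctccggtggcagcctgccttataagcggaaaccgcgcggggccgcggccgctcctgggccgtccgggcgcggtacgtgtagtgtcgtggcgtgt

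Windows were matched for 26 of the 32 genes, 34 windows in all. TCACNCCAC was present in 1 of the 34 (2.94%), that of Hmgcs1, where it starts at -137 from the annotated start and overlaps CACCCCAC, against 1.05% of 32817 windows of all genes. CACCCCAC was present in 2 (5.88%, Hmgcs1 and Acat2) against 2.58%. CCAAT was present in 21 of 34 windows (61.8%) against 33.8%, GGGCGG, the letters of an Sp1 site, in 24 (70.6%) against 32.7%, and CACGTG, an E-box, in 6 (17.6%) against 6.02%. Hmgcs1 and Hsd17b7 each held 3 CCAAT, Elovl5 held 2, Insig1 held 1 and Elovl6 held none in this window. These matches describe letters in the sequence and were not compared with the expression values.

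Among the desaturases, Fads1, which adds a double bond late in the synthesis of long polyunsaturated fatty acids such as arachidonic acid, had the largest differences of the 31 genes. At PD25, Fads1 measured 11.91, 11.47 and 11.09 in divided bulge cells, 11.21, 11.17 and 11.37 in undivided bulge cells and 6.34, 6.36 and 7.28 in non-bulge cells. Fads1 at PD21 read 7.01, 8.21 and 8.80 in the divided and 11.34, 11.53 and 11.04 in the undivided bulge, against 7.66, 6.51 and 6.61 outside the bulge. The bulge and non-bulge arrays were separate at PD25 and the undivided arrays were separate from both others at PD21, whereas the divided arrays at PD21 overlapped the non-bulge arrays.

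Fads1 was higher than in non-bulge cells by 4.83 ± 0.40 in divided bulge at PD25 (28.4-fold, adjusted p = 2.26e-08 in limma), by 4.59 ± 0.40 in undivided bulge at PD25 (24.0-fold, adjusted p = 3.47e-08) and by 4.38 ± 0.40 in undivided bulge at PD21 (20.8-fold, adjusted p = 6.12e-08). In divided bulge at PD21 the difference was 1.08 ± 0.40 (adjusted p = 0.914), the lowest unadjusted p of the 31 genes in that comparison (0.0134). Divided cells at PD21 were lower than undivided cells, at -3.30 ± 0.40 (adjusted p = 1.38e-05), while at PD25 the difference was 0.24 ± 0.40 (adjusted p = 0.999). Divided cells at PD25 were higher than divided cells at PD21 by 3.48 ± 0.40 (11.2-fold, adjusted p = 9.01e-06), and undivided cells differed by -0.06 ± 0.40 between the ages (adjusted p = 0.99). The change of the divided minus undivided difference with age, tested as an interaction, was 3.54 ± 0.57 (adjusted p = 0.00419). In that test 2 of 31 genes passed (6.45%), against 1.18% of all genes.

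All of these Fads1 calls held when any 1 array was left out. Divided minus undivided at PD21 was -3.83 within array set 1 (adjusted p = 0.000307) and -2.25 within set 2, which holds 1 PD21 mouse (adjusted p = 0.0754), and the interaction was 4.53 and 2.26 (adjusted p = 0.0372 and 0.348). For the Fads1 differences that passed, the other probe set had the same signs with smaller sizes. It gave 3.51 for undivided bulge minus non-bulge at PD25 (adjusted p = 0.000605 in limma over probe sets). For divided minus undivided at PD21 it gave -2.01 (adjusted p = 0.0675). Its sign was opposite for divided minus undivided at PD25 and for undivided bulge between the ages, where the tested probe set did not pass. At PD25 it read 7.89, 7.78 and 8.25 in divided and 9.68, 8.59 and 7.09 in undivided bulge. The bulge marker list followed the same order of groups as the tested Fads1 probe set. Of its 9 genes (Cd34, Lhx2, Sox9, Nfatc1, Krt15, Lgr5, Tcf7l1, Dkk3 and Sfrp1), 7 were lower in divided than undivided bulge at PD21 and 0 passed at PD25. In the interaction, 6 of the 9 passed and all 9 were positive. Their summed signal was 57224 to 101120 in divided and 60048 to 101770 in undivided bulge at PD25, against 23380 to 58046 in non-bulge cells, and at PD21 it was 31452 to 61032 and 60100 to 130750, against 22429 to 43566. The part of the sort or of bulge content in the Fads1 differences was not tested.

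Fads2 makes the desaturation step before Fads1 in the same route and lies close to Fads1 on chromosome 19. It was dim, and 1 of its 3 probe sets passed the filter. The PD25 arrays gave Fads2 values of 6.68, 7.69 and 6.01 for divided bulge, 4.49, 6.61 and 6.32 for undivided bulge and 4.66, 4.43 and 4.94 for non-bulge cells. At PD21, Fads2 measured 6.91, 6.92 and 5.91 in divided bulge cells, 5.58, 5.19 and 5.67 in undivided bulge cells and 6.83, 6.59 and 6.16 in non-bulge cells. Divided bulge and non-bulge arrays did not overlap at PD25, where Fads2 was higher by 2.12 ± 0.60 (adjusted p = 0.0256). The non-bulge values lie close to 4, a signal of 0, so the size depends on the pseudocount, at 3.20 with a pseudocount of 1 and 1.14 with 64, and no fold is given. Fads2 lay above the array median in only 6 arrays, and it was tested because of the groups in which it is high. The call was lost when only the groups compared were fitted (adjusted p = 0.0571), and it was lost within each array set (2.02 and 2.16, adjusted p = 0.397 and 0.0743). It was also lost without non-bulge mouse 1 or 2 (adjusted p = 0.067 and 0.0887) and without divided mouse 1 or 2 (adjusted p = 0.0576 and 0.144). Non-bulge cells at PD25 had the lowest group mean, with a difference of -1.85 ± 0.60 from non-bulge cells at PD21 (unadjusted p = 0.0053, adjusted p = 0.998), and undivided bulge at PD21 stood at -1.05 ± 0.60 against non-bulge cells (adjusted p = 0.328). Fads2 and Fads1 thus did not share their order of groups at PD21.

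Elovl5 lengthens polyunsaturated fatty acids between the steps of Fads2 and Fads1. At PD25, Elovl5 measured 14.12, 13.28 and 13.33 in divided bulge cells, 14.50, 13.64 and 13.53 in undivided bulge cells and 12.86, 11.91 and 12.78 in non-bulge cells. Elovl5 at PD21 read 13.25, 12.74 and 12.77 in the divided and 14.38, 14.09 and 13.38 in the undivided bulge, against 12.86, 12.98 and 12.68 outside the bulge. Undivided bulge lay above non-bulge cells in every array at both ages, and mouse 1 was the highest of its group in the bulge fractions. The difference was 1.38 ± 0.34 at PD25 (2.59-fold, adjusted p = 0.00722) and 1.11 ± 0.34 at PD21 (2.16-fold, adjusted p = 0.0328). The PD25 call was lost without non-bulge mouse 2 (1.07, adjusted p = 0.0668) or undivided mouse 1 (1.07, adjusted p = 0.069), and the PD21 call was lost without any non-bulge mouse or without undivided mouse 1 or 2 (0.89 to 1.18, adjusted p = 0.062 to 0.173). It was further lost without the variance trend (adjusted p = 0.0627) and within array set 2 (0.70, adjusted p = 0.45).

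When each mouse was entered as a replicate block in limma, the undivided differences had a standard error of 0.18. Their adjusted p was 8.3e-06 at PD25 and 0.000116 at PD21. With the block, Elovl5 also passed where the unblocked fit fell short. In divided bulge minus non-bulge at PD25 it was 1.06 ± 0.34 (adjusted p = 0.0501, and 0.00025 with the block), and in divided minus undivided at PD21 it was -1.03 ± 0.34 (adjusted p = 0.0605, and 0.000385 with the block). The block raised the number that passed of 31 to 5 in the PD25 comparison, where 12.3% of all genes passed with it, and to 4 in the PD21 comparison, where 13.3% did. The second Elovl5 probe set had the same sign in all 4 of these differences and passed in each over probe sets, at 1.23, 1.03, 0.98 and -1.23 for undivided minus non-bulge at PD25 and PD21, divided minus non-bulge at PD25 and divided minus undivided at PD21.

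Scd2, a stearoyl-CoA desaturase that makes monounsaturated fatty acids, was higher in the bulge in 3 comparisons. Scd2 at PD25 read 11.78, 11.95 and 12.18 in the divided and 11.82, 11.84 and 11.74 in the undivided bulge, against 9.79, 10.90 and 10.77 outside the bulge. The PD21 arrays gave Scd2 values of 10.28, 10.50 and 10.88 for divided bulge, 11.02, 11.37 and 11.50 for undivided bulge and 9.99, 9.41 and 10.89 for non-bulge cells. At PD25 both bulge fractions lay above all non-bulge arrays, and at PD21 only the undivided arrays did. The difference from non-bulge cells was 1.49 ± 0.31 in divided bulge at PD25 (2.80-fold, adjusted p = 0.00214), 1.31 ± 0.31 in undivided bulge at PD25 (adjusted p = 0.00511) and 1.20 ± 0.31 in undivided bulge at PD21 (adjusted p = 0.0103). Divided cells at PD25 were higher than divided cells at PD21 by 1.42 ± 0.31 (2.67-fold, adjusted p = 0.00433). Without non-bulge mouse 1 the undivided difference at PD25 was 0.97 (adjusted p = 0.0569), and without non-bulge mouse 2 that at PD21 was 0.86 (adjusted p = 0.1). A second Scd2 probe set passed in the same 4 comparisons, and the other passed in none, at 0.45 for undivided bulge minus non-bulge at PD21 (adjusted p = 0.783). With the mean of the probe sets, the undivided difference at PD21 (adjusted p = 0.0815) and the age difference in divided bulge (adjusted p = 0.0621) were lost. Both were also lost within array set 2, at 0.61 and 1.19 (adjusted p = 0.611 and 0.125), and passed within set 1, at 1.5 and 1.39.

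Elovl6, which lengthens palmitate to stearate, was lower in undivided bulge at PD21. The PD25 arrays gave Elovl6 values of 11.31, 11.23 and 11.31 for divided bulge, 11.71, 11.44 and 11.83 for undivided bulge and 11.77, 10.80 and 12.28 for non-bulge cells. At PD21, Elovl6 measured 11.93, 11.09 and 11.70 in divided bulge cells, 10.49, 10.10 and 10.14 in undivided bulge cells and 11.88, 11.76 and 12.04 in non-bulge cells. The 3 undivided PD21 arrays were the lowest of all 18. Undivided bulge at PD21 was lower than non-bulge cells, at -1.65 ± 0.28 (adjusted p = 0.000215), while at PD25 the difference was 0.05 ± 0.28 (adjusted p = 0.967). Divided bulge was higher than undivided bulge at PD21 by 1.33 ± 0.28 (2.52-fold, adjusted p = 0.00289), with -0.38 ± 0.28 at PD25 (adjusted p = 0.999). Undivided cells at PD25 were higher than at PD21 by 1.42 ± 0.28 (adjusted p = 0.0457). The interaction was -1.71 ± 0.40 (adjusted p = 0.0334).

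The PD21 calls of Elovl6 held without any 1 array and were lost within array set 2, at -1.90 and 1.56 (adjusted p = 0.0739 and 0.224), whereas the age difference was lost without any 1 of its 6 arrays (1.33 to 1.54, adjusted p = 0.0782 to 0.153). The interaction was lost without undivided mouse 2 or 3 or divided mouse 1 of PD21, or without mouse 1 or 3 of either bulge fraction of PD25 (-1.53 to -1.72, adjusted p = 0.0643 to 0.106). Both the age difference and the interaction were also lost with the mean of the probe sets (adjusted p = 0.222 and 0.114), without the variance trend (adjusted p = 0.234 and 0.102) and within each array set. A second Elovl6 probe set gave -1.81 (adjusted p = 0.00378) and 1.68 (adjusted p = 0.00964) for the PD21 differences, and the other gave -0.73 and 0.71, neither of which passed. At PD21, sebaceous gland markers were also lower in undivided bulge. Of 10 measured sebocyte genes of 14 listed, 0 were higher and 4 lower at PD21 in undivided bulge than outside the bulge, and 3 were higher in divided than in undivided bulge. Their summed signal at PD21 was 22661 to 39656 in divided and 11577 to 20517 in undivided bulge, against 24516 to 36751 in non-bulge cells. Pparg, a sebocyte transcription factor, lay at 7.19 to 8.44, 4.59 to 5.52 and 6.52 to 8.75 in these groups, and Mc5r, a sebocyte receptor, did not pass the filter and lay at 4.12 to 6.39 over all arrays, where 4 is a signal of 0. At PD25 the summed sebocyte signal was 15916 to 18805 in divided and 19108 to 22230 in undivided bulge, against 19644 to 28425 in non-bulge cells. At that age 1 sebocyte gene, Acsbg1, was lower in each bulge fraction than outside the bulge, while no Elovl6 difference between the fractions passed. The sebocyte list includes Fasn, 1 of the 31 genes, and the part of sebocyte RNA in the Elovl6 difference was not tested.

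**Figure D3:**
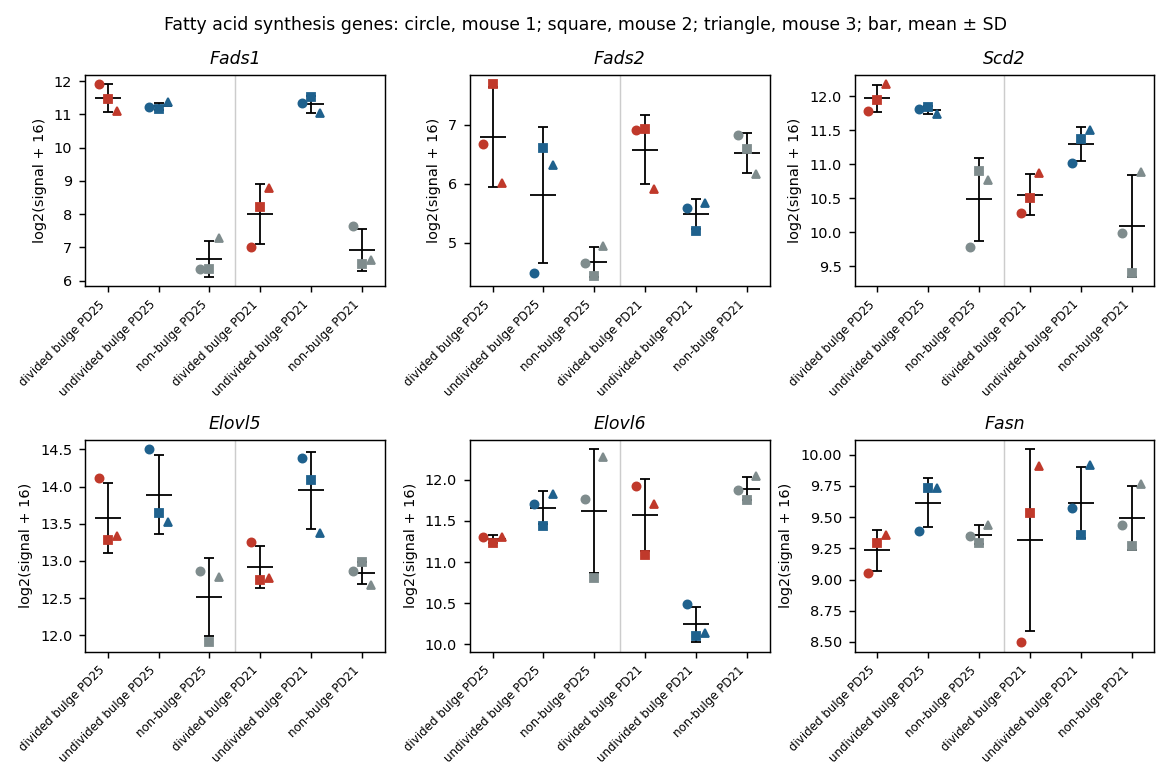
Log2(signal + 16) of 6 fatty acid genes in the 18 arrays by group, with symbols for the mouse and bars for mean ± SD (n = 3). Fads1 separates the 9 high arrays at 11.04 to 11.91 from the 9 others at 6.34 to 8.80, and Elovl6 is lowest in undivided bulge at PD21, at 10.10 to 10.49.

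Fasn, the fatty acid synthase itself, did not pass in any comparison. Fasn at PD25 read 9.05, 9.29 and 9.36 in the divided and 9.39, 9.73 and 9.73 in the undivided bulge, against 9.35, 9.29 and 9.44 outside the bulge. The PD21 arrays gave Fasn values of 8.50, 9.53 and 9.91 for divided bulge, 9.57, 9.36 and 9.92 for undivided bulge and 9.44, 9.27 and 9.77 for non-bulge cells. The arrays of all groups overlapped except divided and undivided bulge at PD25, and the largest difference was -0.38 ± 0.32, for divided minus undivided bulge at PD25 (adjusted p = 0.999, 95% interval -1.03 to 0.27). The enzymes that feed it likewise did not pass in any of the 9 pairwise comparisons. Acly, which makes cytosolic acetyl-CoA from citrate, had group means of 12.52 to 12.96. Acaca, the acetyl-CoA carboxylase, had differences of -0.70 to 0.57. Me1, the malic enzyme that supplies NADPH, had differences of -0.92 to 0.62. Elovl1, an elongase of very long chains, had differences of -0.48 to 0.62.

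Among the sterol enzymes, Hmgcs1, the HMG-CoA synthase at the entry to the mevalonate pathway, did not pass by its brightest probe set. At PD25, Hmgcs1 measured 13.98, 13.21 and 13.41 in divided bulge cells, 13.77, 13.28 and 13.36 in undivided bulge cells and 14.23, 13.51 and 13.63 in non-bulge cells. Hmgcs1 at PD21 read 14.37, 14.06 and 13.48 in the divided and 13.61, 13.89 and 13.12 in the undivided bulge, against 14.25, 14.03 and 13.43 outside the bulge. The groups overlapped in each comparison, and mouse 1 was the highest in all 3 fractions of PD25 and mouse 3 the lowest in all 3 fractions of PD21. The difference of undivided bulge from non-bulge cells was -0.32 ± 0.33 at PD25 (adjusted p = 0.701) and -0.36 ± 0.33 at PD21 (adjusted p = 0.583). Divided minus undivided bulge at PD21 was 0.43 ± 0.33 (adjusted p = 0.538), and it passed once mice were blocked (adjusted p = 0.0256).

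The other Hmgcs1 probe sets differed more. For undivided bulge minus non-bulge at PD21, 2 of the 4 others passed over probe sets, at -1.37 (adjusted p = 0.000259) and -1.28 (adjusted p = 0.0028), and the remaining 2 stood at -0.81 and -1.59. For divided minus undivided bulge at PD21, 3 of the 4 passed, at 0.98, 1.07 and 0.87 (adjusted p = 0.00911, 0.0171 and 0.0422). All 5 probe sets had the same sign in both comparisons, so the direction was shared and the size depended on the probe set.

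Sqle, the squalene epoxidase that makes the first oxygenated sterol precursor, did not pass in any comparison. The PD25 arrays gave Sqle values of 9.65, 10.39 and 10.10 for divided bulge, 10.03, 10.73 and 10.54 for undivided bulge and 10.03, 9.63 and 10.22 for non-bulge cells. At PD21, Sqle measured 9.94, 9.49 and 10.24 in divided bulge cells, 9.53, 9.86 and 10.00 in undivided bulge cells and 9.18, 8.33 and 10.08 in non-bulge cells. Its groups overlapped in all comparisons except undivided bulge at PD25 against PD21. Its largest difference was 0.77 ± 0.35, in non-bulge cells between PD25 and PD21 (adjusted p = 0.998), and the lowest value of all, 8.33, was the non-bulge array of PD21 mouse 2.

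Hsd17b7, a reductase that acts when methyl groups are taken off the sterol ring, was lower in undivided bulge at PD21. Hsd17b7 at PD25 read 10.63, 10.71 and 9.99 in the divided and 10.72, 10.97 and 11.11 in the undivided bulge, against 10.95, 10.69 and 11.04 outside the bulge. The PD21 arrays gave Hsd17b7 values of 10.76, 10.28 and 10.70 for divided bulge, 9.65, 10.06 and 9.91 for undivided bulge and 10.79, 10.74 and 10.91 for non-bulge cells. As for Elovl6, the undivided PD21 arrays were separate from both other PD21 groups and from undivided PD25. The difference from non-bulge cells at PD21 was -0.94 ± 0.23 (adjusted p = 0.0071), with 0.04 ± 0.23 at PD25 (adjusted p = 0.968). Divided minus undivided bulge at PD21 was 0.71 ± 0.23 (adjusted p = 0.0602), and undivided bulge at PD25 minus PD21 was 1.06 ± 0.23 (adjusted p = 0.0544). The interaction was -1.20 ± 0.33 (adjusted p = 0.0668, and 0.0467 with mice blocked). Within array sets 1 and 2 the PD21 difference was -0.92 and -1.0 (adjusted p = 0.0747 and 0.386). A second probe set gave -1.88 (adjusted p = 0.000507) and the other 0.32 (adjusted p = 0.84), so the probe sets of Hsd17b7 disagreed in sign, and with their mean the call was lost (-0.84, adjusted p = 0.0559). The sebocyte values given with Elovl6 apply to the same arrays, and their part was not tested.

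Dhcr7 catalyses the last step, which makes cholesterol from its direct precursor. At PD25, Dhcr7 measured 11.25, 11.17 and 11.73 in divided bulge cells, 11.57, 11.42 and 11.49 in undivided bulge cells and 11.07, 11.15 and 10.73 in non-bulge cells. Dhcr7 at PD21 read 11.23, 10.93 and 11.10 in the divided and 11.65, 11.45 and 11.54 in the undivided bulge, against 10.80, 9.77 and 10.74 outside the bulge. At each age both bulge fractions lay above all non-bulge arrays, and non-bulge mouse 2 of PD21 was the lowest. Undivided bulge was higher than non-bulge cells at PD21 by 1.11 ± 0.25 (2.15-fold, adjusted p = 0.00302), and the call held without any 1 array but not within array set 2 (0.80, adjusted p = 0.489). The differences at PD25 were 0.40 ± 0.25 in divided and 0.51 ± 0.25 in undivided bulge (adjusted p = 0.439 and 0.237), and that of divided bulge at PD21 was 0.65 ± 0.25 (unadjusted p = 0.0142, adjusted p = 0.914).

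The other 12 sterol enzymes did not pass in any of the 9 pairwise comparisons. Among the mevalonate enzymes, the kinases Mvk and Pmvk had differences of -1.59 to 0.97 and -0.04 to 0.58, and the decarboxylase Mvd of -0.33 to 0.77. Mvk was scattered, at 5.70, 7.77 and 8.31 in divided bulge and 8.28, 8.91 and 8.94 in undivided bulge at PD25, a difference of -1.45 ± 0.62 (unadjusted p = 0.0293, adjusted p = 0.82). Idi1, the isomerase of the isoprene units, measured 11.93, 11.93 and 11.48 in divided and 12.81, 12.22 and 12.18 in undivided bulge at PD25. These Idi1 groups did not overlap, and their difference of -0.62 ± 0.26 had the lowest unadjusted p of the 31 genes in that comparison (0.0245, adjusted p = 0.771).

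Fdps, which makes farnesyl diphosphate, and Fdft1, the squalene synthase, had differences of -0.51 to 0.68 and -0.36 to 0.66. Fdft1 averaged 11.37 ± 0.28 at PD25 and 10.84 ± 0.24 at PD21 in non-bulge cells (SD, n = 3 each), a difference of 0.53 in limma (unadjusted p = 0.0214, adjusted p = 0.998). The cyclase Lss and the demethylase Cyp51, which make and then trim lanosterol, had differences of -0.47 to 0.62 and -0.32 to 0.72. Nsdhl and Msmo1, which remove further methyl groups, had differences of -0.28 to 0.59 and -0.87 to 0.97. Ebp, a sterol isomerase, and Sc5d, a sterol desaturase, had differences of -0.79 to 0.54 and -0.67 to 0.41. Ebp in undivided bulge minus non-bulge at PD25 was -0.79 ± 0.28 (adjusted p = 0.0822), and it passed once mice were blocked (adjusted p = 0.0417).

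Among the regulators, Insig1, which retains the SREBP precursors in the endoplasmic reticulum and is itself a target of SREBP, was higher in undivided bulge at PD25. The PD25 arrays gave Insig1 values of 10.32, 10.05 and 9.74 for divided bulge, 10.64, 10.19 and 11.09 for undivided bulge and 9.16, 9.26 and 9.85 for non-bulge cells. At PD21, Insig1 measured 9.97, 8.31 and 9.28 in divided bulge cells, 9.14, 9.55 and 9.19 in undivided bulge cells and 9.50, 8.83 and 9.19 in non-bulge cells. All 3 undivided PD25 arrays lay above all non-bulge arrays of that age, and at PD21 the groups overlapped. The difference was 1.22 ± 0.35 at PD25 (2.32-fold, adjusted p = 0.025) and 0.12 ± 0.35 at PD21 (adjusted p = 0.891), and whether these differ was not tested. The PD25 call was lost without non-bulge mouse 1 or 2 or undivided mouse 1 or 3 (0.99 to 1.22, adjusted p = 0.0726 to 0.133). It was also lost without the variance trend (adjusted p = 0.0522) and within each array set (1.47 and 1.09, adjusted p = 0.317 and 0.13). Undivided cells at PD25 stood 1.35 ± 0.35 above those at PD21, without overlap (adjusted p = 0.144).

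Stard4, a soluble carrier that moves cholesterol between membranes, was also higher in undivided bulge at PD25. Stard4 at PD25 read 10.44, 10.33 and 9.98 in the divided and 10.27, 10.61 and 11.24 in the undivided bulge, against 9.42, 8.67 and 9.74 outside the bulge. The PD21 arrays gave Stard4 values of 10.04, 10.43 and 10.25 for divided bulge, 11.22, 9.97 and 10.50 for undivided bulge and 9.91, 9.54 and 9.76 for non-bulge cells. By the 2 other Stard4 probe sets, both bulge fractions overlapped the non-bulge arrays at PD21. By the brightest, both bulge fractions lay above the non-bulge arrays at each age. The difference of undivided bulge was 1.43 ± 0.32 at PD25 (2.69-fold, adjusted p = 0.00314) and 0.83 ± 0.32 at PD21 (adjusted p = 0.103). Divided bulge at PD25 stood at 0.97 ± 0.32 (adjusted p = 0.0596, and 0.0415 with mice blocked). The undivided PD25 difference was 0.85 within array set 1 and 1.72 within set 2 (adjusted p = 0.511 and 0.0125). Of the 2 other probe sets, 1 passed in that comparison at 1.31 and the other did not, at 0.73.

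Srebf2 encodes the SREBP form that mainly drives sterol genes. At PD25, Srebf2 measured 10.42, 9.64 and 10.40 in divided bulge cells, 10.39, 10.21 and 10.78 in undivided bulge cells and 9.06, 9.70 and 9.97 in non-bulge cells. Srebf2 at PD21 read 9.22, 10.13 and 10.39 in the divided and 10.34, 10.37 and 10.49 in the undivided bulge, against 9.49, 9.52 and 9.57 outside the bulge. By the other Srebf2 probe set, undivided bulge and non-bulge arrays overlapped at both ages. It read 9.22, 9.18 and 10.04 against 9.35, 9.03 and 8.77 at PD25. At PD21 it read 8.56, 9.95 and 10.37 against 8.08, 8.63 and 8.75. By the brightest probe set these arrays did not overlap at either age. The differences were 0.89 ± 0.30 at PD25 (adjusted p = 0.0669) and 0.87 ± 0.30 at PD21 (adjusted p = 0.0692), and both passed with mice blocked (adjusted p = 0.0349 and 0.0361).

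Srebf1 encodes the forms that mainly drive fatty acid genes. The PD25 arrays gave Srebf1 values of 8.46, 9.58 and 9.24 for divided bulge, 9.32, 9.73 and 9.45 for undivided bulge and 9.74, 9.74 and 10.08 for non-bulge cells. At PD21, Srebf1 measured 10.11, 9.43 and 9.73 in divided bulge cells, 8.25, 8.84 and 9.0 in undivided bulge cells and 9.37, 8.28 and 10.28 in non-bulge cells. Undivided bulge at PD21 was low, and its arrays did not overlap those of divided bulge at PD21 or of undivided bulge at PD25. No comparison passed, and the largest difference was 1.06 ± 0.39, for divided minus undivided bulge at PD21 (adjusted p = 0.106). Scap, the escort of the SREBP precursors, had differences of -0.23 to 0.29 in the 9 comparisons, none of which passed.

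**Figure D4:**
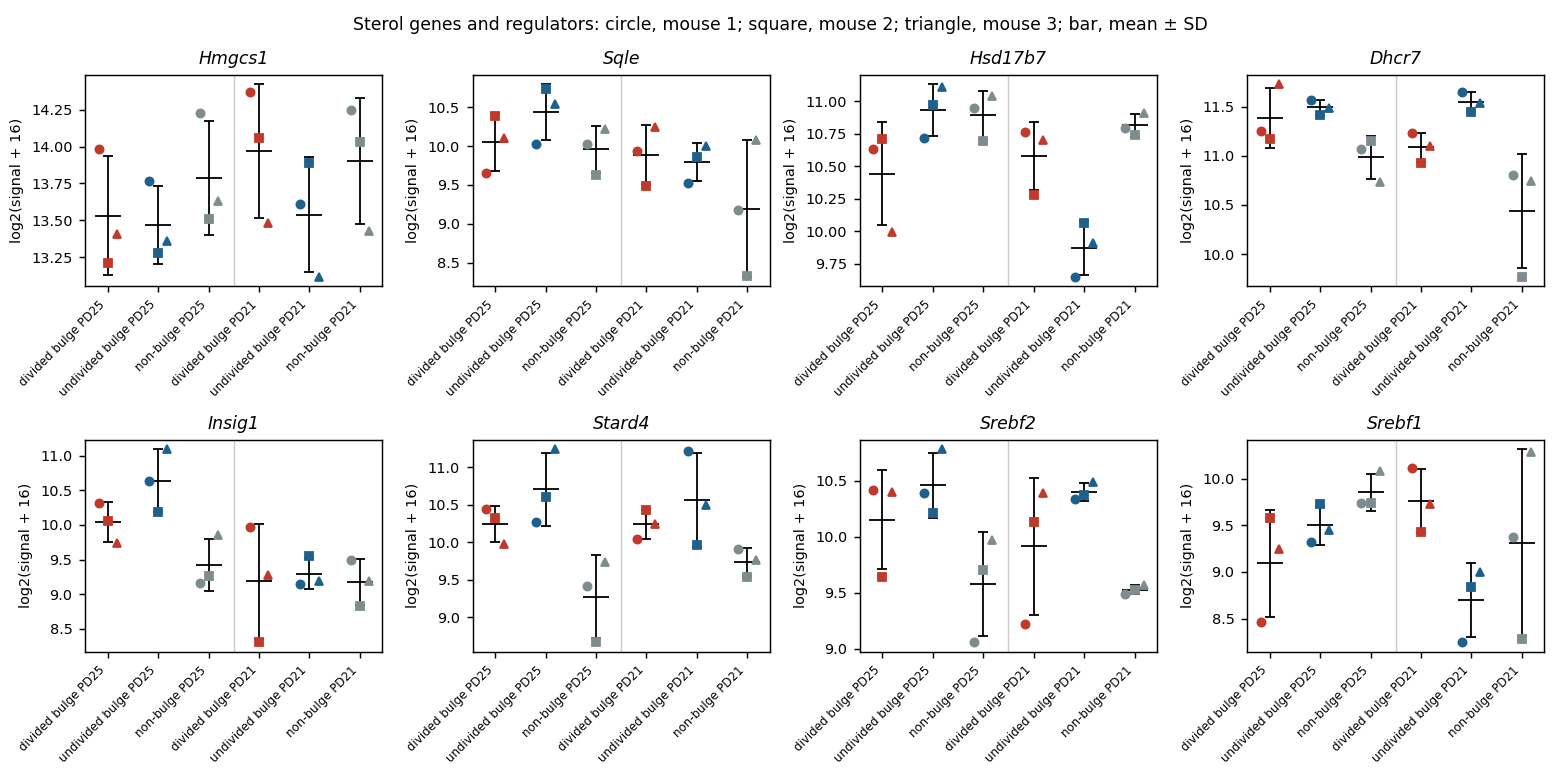
Log2(signal + 16) of 4 sterol enzymes and 4 regulators in the 18 arrays by group, with symbols for the mouse and bars for mean ± SD (n = 3). On average Hsd17b7 is lowest in undivided bulge at PD21, at 9.65 to 10.06, and Insig1 highest in undivided bulge at PD25, at 10.19 to 11.09.

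At PD25 the genes leaned lower in divided than in undivided bulge, although none passed. Of 31 genes 25 had a negative difference, with a median of -0.32, against 47.8% of all genes and a median of 0.02. The 25 were 14 of 16 sterol enzymes, 4 of 5 regulators and 7 of 10 fatty acid enzymes. In limma, 3 of 31 had an unadjusted p under 0.05 (Idi1, Mvk and Hsd17b7), as had 635 of 11569 genes, and under the replicate block 0 of 31 and 0.0864% of all genes passed. The groups did not overlap for 4 genes, against 9.93% of all genes.

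The undivided PD25 arrays also enter the age comparison, where 6 of 31 genes had a negative difference, against 47.9% of all genes, with a median of 0.19 against 0.02 over all genes. The median over the 31 genes of the value minus the gene's own mean over 18 arrays was 0.27, 0.26 and 0.47 in the undivided PD25 arrays, and between -0.49 and 0.17 in the other 15 arrays. In divided minus undivided bulge at PD25 and in this age comparison, proliferation genes leaned the same way as the 31 genes. They did not do so in every comparison. In undivided bulge minus non-bulge at PD21, 11 of 12 were negative, while 18 of 31 genes were positive. At PD25, 11 of 12 were positive, as were 24 of 31 genes. All 12 proliferation genes were negative in divided minus undivided bulge at PD25 and positive in undivided bulge at PD25 minus PD21, 0 passed in either, and their summed signal was 28837 to 51000 in divided and 45835 to 73643 in undivided bulge at PD25, and 22531 to 47220 in undivided bulge at PD21. Their part in the values of the 31 genes was not tested.

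The probe sets of 1 gene did not always agree. Of the 31 genes, 21 had more than 1 probe set that passed the filter, and the gene values rest on the brightest. For undivided bulge minus non-bulge at PD21, Mvk stood at -0.05 and 1.17 by its 2 probe sets, and Lss at 0.34, 0.22 and 1.20 by its 3.

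**Figure D5:**
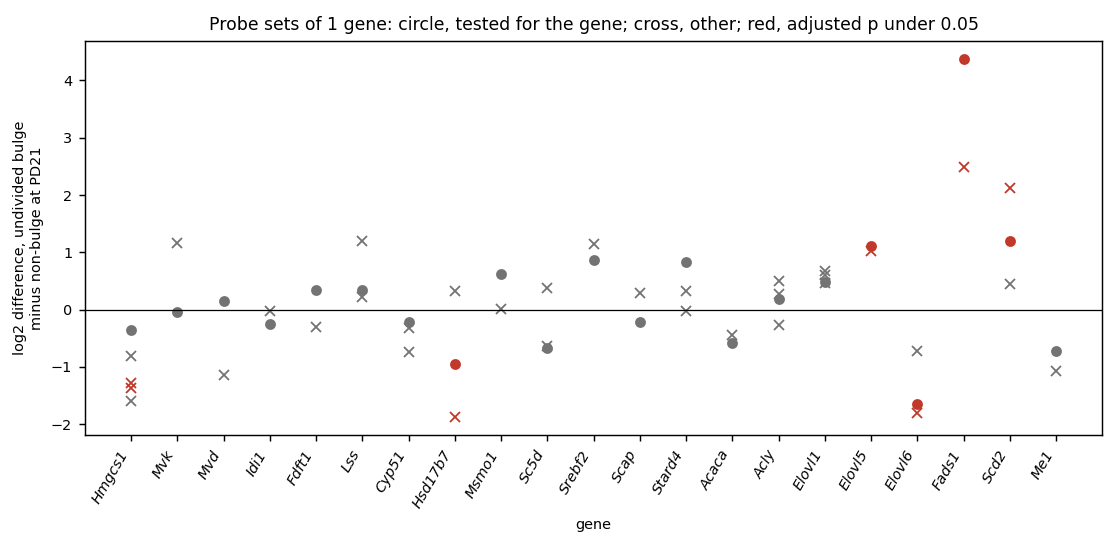
Log2 difference of undivided bulge minus non-bulge at PD21 for every probe set that passed the filter, for the 21 genes with more than 1. Circles are the probe sets tested for the gene, crosses are the others, and red marks an adjusted p under 0.05. Both Fads1 probe sets lie above 2, and 4 of the 5 Hmgcs1 probe sets lie below the tested one.

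Of 31 other genes of the pathway that are not in the set, 25 were tested. Against non-bulge cells, 0 were higher and 3 lower in undivided bulge at each age, beside 10.5% of all genes called at PD25 and 11.0% at PD21. In divided bulge, 0 were higher and 2 lower at PD25 (8.87% of all genes called), and 0 passed at PD21. Divided against undivided bulge, 0 passed at PD25, and 2 were higher and 0 lower at PD21 (8.28% of all genes). Between the ages, 0 passed in undivided bulge and in non-bulge cells, and 1 was lower at PD25 in divided bulge (7.84% of all genes). In the interaction 1 passed, with a negative sign (1.18% of all genes). Some of these genes, such as Scd1, Elovl3 and Soat1, also stand in the sebocyte list.

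Markers of other cells that the sort could hold also differed between bulge and non-bulge cells. Of 4 dermal fibroblast genes tested of 7 listed, 3 were higher in divided bulge at PD25, the collagen genes Col1a1, Col1a2 and Col3a1. Col1a1 was higher in undivided bulge at PD25, by 2.34 (adjusted p = 0.0055), and Col1a1 and Sparc at PD21, by 4.09 and 2.38 (adjusted p = 1.23e-05 and 4.01e-05). The other 2 had negative differences in undivided bulge at PD21, the lowest at -0.91, and neither passed. In divided bulge at PD21, Col1a1 was higher by 3.55 (adjusted p = 0.00358), and all 4 genes were positive. The summed signal of the 4 was 6326.1 to 16559 in divided and 8319.7 to 10944 in undivided bulge at PD25, against 4017.2 to 8213.8 in non-bulge cells. At PD21 it was 5934.2 to 9674.1 in divided and 13962 to 28800 in undivided bulge, against 3213.7 to 5128.6 in non-bulge cells. Of 2 adipocyte genes tested of 9 listed, Lpl, a lipoprotein lipase, was lower than in non-bulge cells in divided bulge at PD25, at -1.86, and in undivided bulge at PD21, at -2.55 (adjusted p = 0.00202 and 4.47e-05), and Adipoq, which defines adipocytes, did not pass the filter. The summed adipocyte signal was 557.1 to 763.3 in divided bulge at PD25, against 1674.6 to 2509 in non-bulge cells, and 213.4 to 810.6 in undivided bulge at PD21, against 1601.3 to 3150.6 in non-bulge cells.

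Of 9 suprabasal genes, Krt1 and Dsg1a were lower in undivided bulge at PD25 and Dsg1a at PD21, and the summed signal was 43456 to 54893 and 47701 to 105070, against 60693 to 117470 and 52748 to 102420 in non-bulge cells of the same ages. Of 2 melanocyte genes tested, Dct was higher in both bulge fractions at PD25, by 2.11 in divided and 2.22 in undivided cells. The other stood at -0.33 and -0.20 and did not pass. Their summed signal was low and overlapped, at 189.9 to 307.3 in divided and 175.1 to 403.9 in undivided bulge, against 84.1 to 258.9 in non-bulge cells. Of 6 leukocyte genes tested, 0 passed in any comparison, and Ptprc did not pass the filter, nor did any of the 4 endothelial genes listed. The basal markers Krt5 and Krt14 lay at 14.01 to 15.52 and 13.64 to 15.27 over all arrays. The part of these cell types in the bulge values of the 31 genes was not tested.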

How the data were processed

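For 18 arrays, the authors deposited linear intensity values of each probe set, made with GCOS, per the submitters' processing notes. The sources used here do not name its version. Every array had the same 2% trimmed mean, so the deposited intensity values were already scaled and were not normalised again. Of 45101 probe sets, 64 were controls, 34945 had 1 gene symbol, 932 had several and 9160 had none listed, and the last 2 kinds were left out. Group and mouse number came from the labels.

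Values were taken as log2(signal + 16). Probe sets above the array median in at least 3 of 18 arrays were kept, and the probe set of highest mean stood for its gene. All 6 group means were fitted together in limma 3.58.1 (R 4.3.3; lmFit, then eBayes with trend), leaving 12 residual degrees of freedom, and p-values were adjusted by Benjamini-Hochberg over 11569 genes. All 31 genes matched the RefSeq table by identifier. The fit was tested on simulated data. Because 3 arrays per group limit the precision, in simulated data for undivided bulge against non-bulge at PD21, run on 11569 genes, 22.4% of genes changed by 1 on the log2 scale, 58.2% of those changed by 2 and 93.9% of those changed by 3 were recovered.

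Mouse numbers name the same animal across the fractions of an age, per the labels, so they pair the samples within an age. Deviations of same-numbered arrays from their group means correlated at r of 0.0745 to 0.462 over 18 pairs. The genes, marker lists and alternatives were chosen with earlier results of these data known. Values in every array are given for up to 4 genes of lowest adjusted p among those that passed in each of the 9 pairwise comparisons, and always for Hmgcs1, Sqle, Insig1, Srebf1, Srebf2 and Fasn. Where none passed, the 2 of lowest unadjusted p are named. Alternatives were other pseudocounts, no filter, quantile normalisation, the mean of probe sets, no variance trend, only the groups compared, the mouse as a block and leaving out arrays. The fits with the array set as a block and within each set were added after the data were seen. Marker lists covered sebocytes, adipocytes, suprabasal and basal epidermis, bulge, infundibulum, proliferation, fibroblasts, leukocytes, melanocytes and endothelium, the last with no gene past the filter. The sources used here do not give sex or sorting gates.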

Additional observations from a re-analysis of the deposited data

Results flagged for a closer look

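By the interaction test in limma, the divided minus undivided difference changed between the ages in 2 of the 31 genes. That was 6.45%, against 1.18% of all genes. Divided minus undivided bulge was higher at PD25 than at PD21 by 3.54 ± 0.57 in Fads1 (adjusted p = 0.00419), with differences of 0.24 at PD25 and -3.30 at PD21. In Elovl6 it was lower at PD25, at -1.71 ± 0.40 (adjusted p = 0.0334), with differences of -0.38 at PD25 and 1.33 at PD21. These values are of the brightest probe set of each gene. By it, all 3 divided arrays of PD21 lay below all 3 undivided arrays in Fads1 and above them in Elovl6. The other Fads1 probe set and a second Elovl6 probe set changed with the same signs, Fads1 by less. In the dimmest Elovl6 probe set divided bulge averaged higher than undivided bulge at both ages. It read 6.41, 8.46 and 6.93 against 5.86, 7.39 and 6.13 at PD25. At PD21 it read 6.94, 8.05 and 7.50 against 5.82, 7.43 and 7.11. Within array sets 1 and 2 the interaction by the brightest probe set was 4.53 and 2.26 in Fads1 and -1.62 and -1.92 in Elovl6. Set 1 holds 1 PD25 mouse, and set 2 holds 1 PD21 mouse. The Elovl6 call was lost under 11 of 23 alternatives, and the Fads1 call under 1. All 9 bulge markers were positive in the same test, and 6 passed, with Cd34 at 3.47. Divided bulge at PD21 lay at 7.91 to 9.68 in Cd34, against 12.40 to 13.12 in undivided bulge. The part of the sort or of bulge content in these 2 genes was not tested.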

How the results depend on the processing

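Of 21 calls of a gene in a comparison, none changed sign under any alternative run. The mouse as a replicate block and the array set as a block ended none of them, pseudocount 64 ended none, and pseudocount 1, no filter, quantile normalisation and a fit of only the groups compared ended 1 each. The mean of probe sets ended 5 and no variance trend ended 4. Within array set 1, with 1 PD25 mouse, 6 were lost, and within set 2, with 1 PD21 mouse, 13 were lost. In those fits a group with 1 array is assumed to vary like the others, and fewer arrays were used.

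The number of genes that passed, of 31, moved as follows. The share of all genes that passed is not given for these fits or for those that leave out an array. These counts therefore describe how stable the calls are and are not a result about the 31 genes. For PD25 minus PD21 in undivided bulge (1) it was 0 with pseudocount 1, no filter, quantile normalisation, the mean of probe sets, no variance trend and within each array set. In divided bulge (2) it was 4 with quantile normalisation or the array set as a block, and 1 with the mean of probe sets or within set 2. For divided minus undivided bulge at PD21 (2) it was 4 with the mean of probe sets, 7 with the array set as a block and 0 within set 2. For the interaction (2) it was 1 with the mean of probe sets, no variance trend or set 1, and 0 within set 2. For undivided bulge minus non-bulge it was 3 within set 1 at PD25 (5) and 1 within set 2 at PD21 (6).

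With the mouse as a replicate block the count was 5 for divided bulge minus non-bulge at PD25 (3 without it) and 4 for divided minus undivided bulge at PD21 (2 without it). With that block 12.3% and 13.3% of all genes passed in these comparisons, against 8.87% and 8.28% without it. The genes added by the block were Elovl5, Stard4, Hmgcs1, Srebf2, Ebp and, in the interaction, Hsd17b7, and no other call changed.

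Leaving out each array in turn gave 3 to 6 for undivided bulge minus non-bulge at PD25, with 3 without non-bulge mouse 1 or 2 or undivided mouse 1, and 4 to 6 at PD21. It gave 2 to 4 for divided bulge minus non-bulge at PD25 and 0 at PD21, and 0 at PD25 and 2 to 3 at PD21 for divided minus undivided bulge. Between the ages it gave 0 in undivided bulge without any 1 of the 6 arrays, 2 to 3 in divided bulge and 0 in non-bulge cells. The interaction gave 1 to 3, with 1 without the 7 arrays named for Elovl6. Dim probe sets, Fads2 above all, limit what signal over background can show.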
